A study of Mus musculus with 10 samples.

Results

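The REEP family (receptor expression-enhancing proteins) is a group of small hairpin proteins of the endoplasmic reticulum (ER), and the 6 genes described here, Reep1 to Reep6, were taken as the whole named family. Of the 6 genes, 5 had a row among the 11702 genes of the deposited gene table. Reep4 (ENSMUSG00000033589) had none, and its level was taken as the sum of its transcripts. The others were Reep1 (ENSMUSG00000052852), Reep2 (ENSMUSG00000038555), Reep3 (ENSMUSG00000019873), Reep5 (ENSMUSG00000005873) and Reep6 (ENSMUSG00000035504). Together the 6 genes had 26 annotated transcripts, of which 25 had a count in at least 1 library.

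REEP proteins insert hairpins into the ER membrane and help to bend it into tubules. The Reep1 to Reep4 branch also contacts microtubules, and Reep5 and Reep6 form the second branch, which lacks that contact region. Mutations of REEP1 and REEP2 cause hereditary spastic paraplegia, a disease of long motor axons, whereas loss of REEP6 causes retinitis pigmentosa, the loss of rod photoreceptors. In the retina Reep6 is made in rods under the rod transcription factor Nrl, and the known rod-specific form of its transcript keeps an exon that the form found in other tissues skips.

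Retinal polyA RNA of female mice was sequenced from 10 libraries. WT mice given DMSO made up 4 libraries (W1 to W4), rd10 mice given DMSO 3 (D1 to D3) and rd10 mice given halofantrine 3 (H1 to H3). Eyes received 1 μL of vehicle or of 20 μM halofantrine, an antimalarial drug, into the vitreous at postnatal days 10 and 24, and retinas were taken at day 36. The rd10 mice were of the line B6.CXB1-Pde6brd10/J and carry a mutation of Pde6b, a subunit of the rod phosphodiesterase, which kills rods from the time they mature. All groups therefore shared sex, 2 injections and vehicle, and the strain of the WT mice was not stated. W1 to W4, D1, D2 and H1 were labelled batch 1, and D3, H2 and H3 batch 2, so that no WT library was in batch 2. The library names also carry set names, whose meaning was not stated. W1 to W3 share a set, W4 has its own, D1, D2 and H1 share a set, H2 and H3 share a set and D3 has its own. Genotype and set therefore cannot be told apart, nor can treatment and set within batch 2. No label said that the libraries came from separate animals, so p-values measure the spread between these libraries.

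The total gene count was 15512212 to 38160436 per library. W4 stood apart from W1 to W3 before any comparison was made. Its summed level of the 12 rod markers was 2918 CPM (a count scaled to a common library total, as in the deposited table). W1 to W3 had 74497 to 79075 CPM, and the rd10 libraries 3724 to 11192 CPM. The sum of the 7 gliosis markers in W4 was 1056 CPM, inside the rd10 range of 1054 to 1348 CPM, while the other WT libraries had 164 to 184 CPM. The library labelled WT W4 thus went against its label on these markers, and the fits of the REEP genes against WT are given with and without it. Leaving W4 out on these markers partly fixes in advance a fall of rod genes, Reep6 included, and a rise of gliosis genes. For these genes the fits without W4 are a description and no separate support. Markers of all retinal neuron types were present in every library. Of tissues around the retina, lens markers summed to at most 22.4 CPM, blood markers to at most 96.1 CPM and pigment epithelium markers to 44.6 to 415 CPM.

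The sequence that separates the 2 forms of Reep6 is shown because the isoform results below turn on it. Reep6 lies on the plus strand at chr10:80329953-80336441 (GRCm38, the build of the reference used here, GENCODE M21, which is not the GRCm39 build of the counts). Exon 5 of its longer form is chr10:80334713-80334793, a coding exon of 81 bases, which is 27 codons. In the lines that follow, capitals mark exon 5, and the lower case letters are the last 12 bases of exon 4 and the first 8 bases of exon 6, the stop codon included.
Reep6 with exon 5: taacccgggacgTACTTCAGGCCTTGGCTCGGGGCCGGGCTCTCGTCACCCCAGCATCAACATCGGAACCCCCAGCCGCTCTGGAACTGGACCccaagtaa
Reep6 without exon 5: taacccgggacgccaagtaa
Both forms keep the same reading frame and stop codon, since the exon is a whole number of codons. Transcripts Reep6-202, Reep6-205 and Reep6-207 hold exon 5, and Reep6-203 and Reep6-204 skip it. The first exon differs too, with 393 bases in Reep6-202 to Reep6-205 and 201 bases in Reep6-207. No transcript of the skipped form has the shorter first exon, so its counts may also depend on reads of the longer first exon.

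Reep6 was the most abundant member of the family in W1 to W3 and fell in rd10 once W4 was left out. Its level was 896 CPM in W1, 907 CPM in W2 and 990 CPM in W3. It was 54.5 CPM in D1, 52.2 CPM in D2 and 122 CPM in D3. The halofantrine libraries had 57.2 CPM in H1, 143 CPM in H2 and 114 CPM in H3, and the library labelled WT W4 had 42.1 CPM, lower than every rd10 library. Without W4, every WT library was over 6 times above every rd10 library, and the rd10 DMSO mean of 76.2 CPM ± 39.6 (SD, n = 3) was 8.19% of the W1 to W3 mean of 931 CPM ± 51.7 (SD, n = 3). In bulk retina, fewer rods and less Reep6 RNA per rod cannot be told apart.

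On the log2 scale, Reep6 was -3.21 ± 0.99 (SE) in rd10 DMSO against all 4 WT libraries, which did not pass the test (adjusted p = 0.187, edgeR quasi-likelihood test with Benjamini-Hochberg adjustment). In that fit 0 of 11698 genes (0%) passed, although 3108 had an unadjusted p under 0.05, and DESeq2 called 589 genes, Reep6 among them (adjusted p = 0.0353). Without W4, Reep6 fell by 3.61 ± 0.34 (SE), an edgeR adjusted p of 0.000103, which is a 12.2-fold lower level. This setting called 7280 of 11696 genes, or 62.2%, so that passing the test was the usual outcome for a gene. In rd10 halofantrine against WT, which shares the WT libraries, Reep6 was -2.75 ± 0.97 (adjusted p = 0.135) with W4, where 1 of 11699 genes (0.00855%) passed, and -3.14 ± 0.28 (adjusted p = 1.46e-05) without W4, where 71.9% of genes passed. With W4, DESeq2 called 2221 genes in this comparison, Reep6 among them (adjusted p = 0.0168). The halofantrine mean of 105 CPM ± 43.6 (SD, n = 3) was 11.2% of the W1 to W3 mean.

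**Figure D1:**
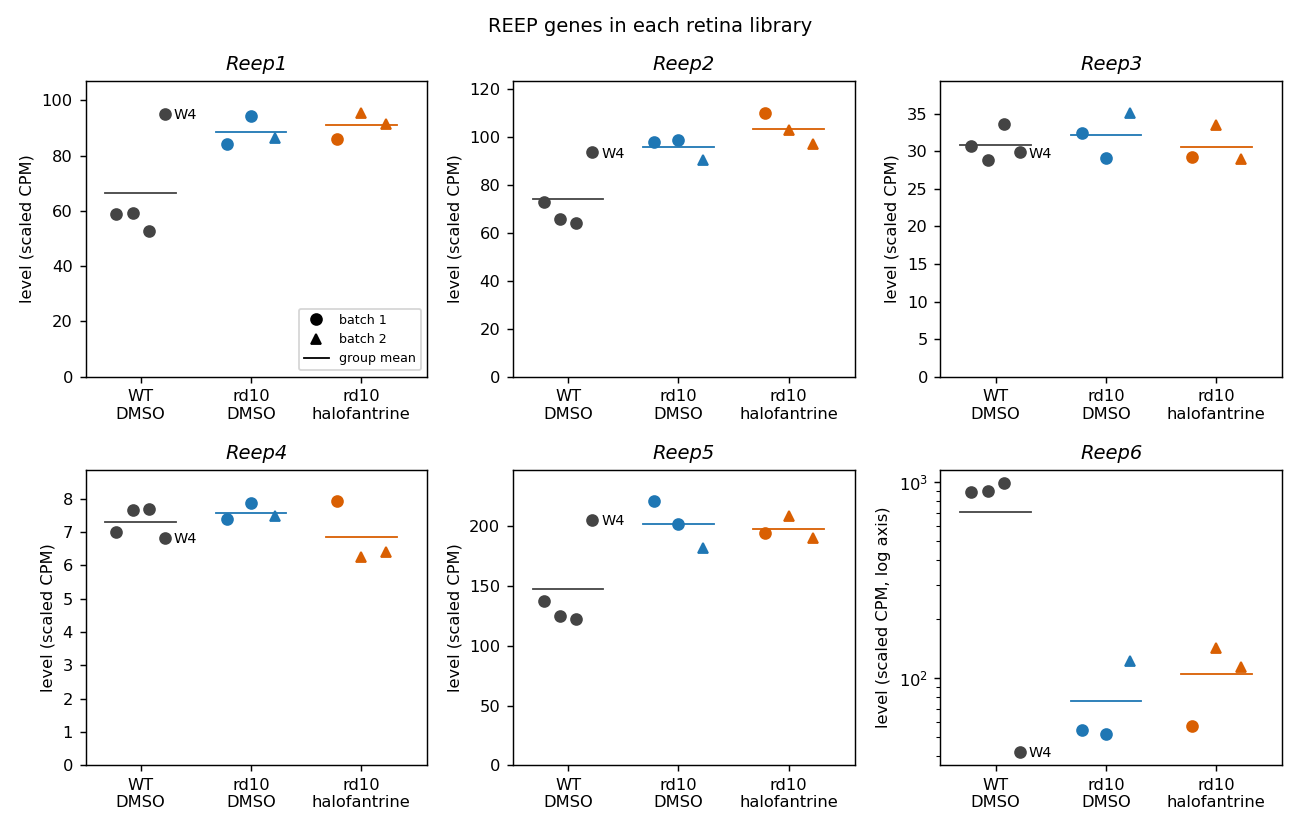
Level of each REEP gene in the 10 retina libraries, in CPM on the deposited scale (the Reep6 axis is logarithmic, the others start at 0). Circles are batch 1, triangles batch 2 and lines group means; W4 is marked. Reep6 of W1 to W3 lies at 896 to 990 CPM and every other library at 42.1 to 143 CPM, whereas Reep3 and Reep4 overlap in all groups.

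Without W4, Reep5, Reep1 and Reep2 moved the other way. Reep5, which bends ER tubules in many tissues, was at 138 CPM, 125 CPM and 122 CPM in W1 to W3, at 205 CPM in W4, at 221 CPM, 202 CPM and 182 CPM in D1 to D3 and at 194 CPM, 208 CPM and 190 CPM in H1 to H3. All rd10 libraries were above W1 to W3. Reep5 was 0.45 ± 0.20 (SE) higher on the log2 scale in rd10 DMSO against all WT libraries (edgeR adjusted p = 0.188) and rose by 0.67 ± 0.09 without W4 (adjusted p = 0.000455).

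Reep1, a neuronal ER-shaping protein of axons, was at 58.7 CPM, 59.4 CPM and 52.7 CPM in W1 to W3 and at 95.05 CPM in W4. It was at 84.4 CPM, 94.4 CPM and 86.4 CPM in D1 to D3 and at 86.1 CPM, 95.5 CPM and 91.5 CPM in H1 to H3, again above W1 to W3 in every rd10 library. How many of all genes separated rd10 from W1 to W3 in this way was not counted. The Reep1 difference in rd10 DMSO was 0.41 ± 0.21 (edgeR adjusted p = 0.202) with W4 and 0.65 ± 0.08 (adjusted p = 0.000269) without it. Reep2, its brain-enriched paralog, was at 72.8 CPM, 66.1 CPM and 64.3 CPM in W1 to W3, at 93.7 CPM in W4, at 97.9 CPM, 99.0 CPM and 90.6 CPM in D1 to D3 and at 110.3 CPM, 103 CPM and 97.1 CPM in H1 to H3. The Reep2 difference was 0.37 ± 0.14 (adjusted p = 0.187) with W4 and 0.52 ± 0.07 (adjusted p = 0.000571) without it. In rd10 halofantrine against WT without W4, Reep5 was at 0.63 ± 0.06, Reep1 at 0.68 ± 0.06 and Reep2 at 0.62 ± 0.07 (edgeR adjusted p = 2.29e-05, 1.86e-05 and 4.01e-05), and with W4 none of the 3 passed by edgeR (adjusted p = 0.135 to 0.154), while DESeq2 called Reep2 (adjusted p = 0.0292) and neither of the others. In rd10 DMSO 3 members rose and 1 fell once W4 was left out, against 62.2% of all genes called. Of the 11696 genes, 3778 were called higher and 3502 lower, so nothing is read from the count of members.

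Reep3 and Reep4, which keep ER membrane away from chromosomes in dividing cells, did not pass in any comparison with WT. Reep3 was at 28.9 CPM to 33.7 CPM in the WT libraries, W4 included, and at 28.9 CPM to 35.1 CPM in the rd10 libraries, so the groups overlapped. Reep4 was at 6.83 CPM to 7.69 CPM in WT and at 6.25 CPM to 7.92 CPM in rd10. Without W4, the log2 difference in rd10 DMSO was 0.06 ± 0.09 for Reep3 (edgeR adjusted p = 0.573) and 0.04 ± 0.13 for Reep4 (adjusted p = 0.787), and neither passed with W4. All these levels are relative to the other RNA of the library. Scaling by library size alone in place of TMM (edgeR's trimmed mean of M-values) moved the median of all genes from -0.02 to 0.14 in rd10 DMSO against WT, a shift as large as the Reep3 and Reep4 differences.

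Reep1, Reep2 and Reep5 are shown beside markers of cells other than rods, in the fit without W4 that called 62.2% of all genes. There the median log2 difference of rd10 DMSO was 0.92 for the 8 Muller glia markers, all 8 of which rose, and 0.69 for the 12 amacrine and horizontal markers, of which 11 rose. It was 0.44 for the 8 ganglion cell markers, of which 7 rose, 0.92 for the 10 bipolar markers, of which 7 rose, and -0.01 for all genes tested. Every member of these 4 lists had a value above 0. With W4 the medians were 0.59, 0.46, 0.28 and 0.58 in the same order, and no marker of the 4 lists passed by edgeR. The 7 of 10 bipolar markers called are near the share over all genes, and nothing is read from them. Of the 10 cone markers 4 rose and 2 fell (median 0.13), all 7 gliosis markers rose (median 3.32), as did the 5 microglia markers tested (median 2.28), 2 of 4 endothelium markers (0.67) and 1 of 5 pigment epithelium markers (0.48), and the 3 blood markers tested fell (-0.92). The cone, endothelium and pigment epithelium counts are near or below the share over all genes, and nothing is read from them either. W4 was left out partly for its gliosis markers. Summed Muller glia markers were at 4334 CPM to 4482 CPM in W1 to W3 and at 7590 CPM to 9148 CPM in rd10 DMSO, and summed amacrine and horizontal markers at 1485 CPM to 1524 CPM and 2204 CPM to 2417 CPM. The part of these cells in the REEP values was not tested.

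**Figure D2:**
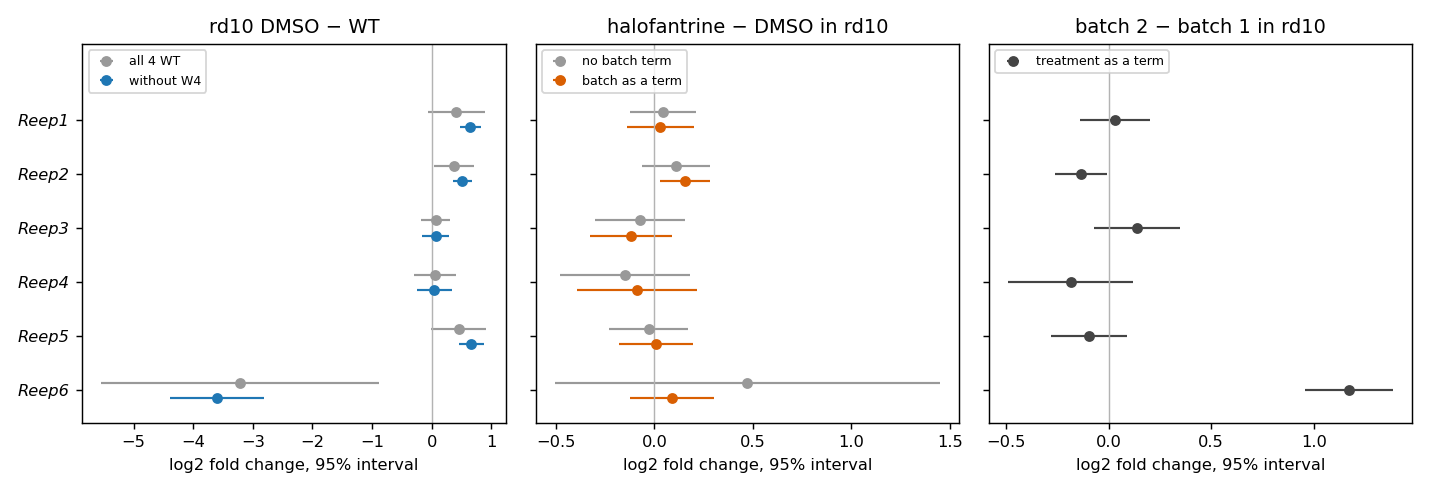
Log2 fold change of each REEP gene with its 95% interval, for rd10 DMSO minus WT (grey, all 4 WT libraries; blue, without W4), halofantrine minus DMSO in rd10 (grey, no batch term; orange, with one) and batch 2 minus batch 1 in rd10. Reep6 is at -3.61 without W4 and at 1.17 for the batch, and its halofantrine value goes from 0.47 to 0.09 when batch is a term.

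Because the members' transcripts differ in length, their order was read from CPM per kilobase, with count-weighted mean lengths of 1386 bases (Reep4) to 5136 bases (Reep3). In W1 to W3 the order was Reep6 at 454 to 502 CPM per kilobase, Reep5 at 42.9 to 48.4, Reep2 at 33.4 to 37.8, Reep1 at 13.6 to 15.4, Reep3 at 5.63 to 6.55 and Reep4 at 5.05 to 5.55. The lowest Reep6 value was thus far above the highest Reep5 value, and only Reep3 and Reep4 nearly met. In rd10 the order changed. Reep5 was at 63.9 to 77.5 CPM per kilobase, Reep2 at 47.1 to 57.3, Reep6 at 26.5 to 72.4 and Reep1 at 21.8 to 24.7, so that Reep6 overlapped both Reep2 and Reep5. Reep3 (5.63 to 6.84) and Reep4 (4.51 to 5.72) overlapped as well.

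Reep6 was set against Reep5, its closest paralog, within each library as a difference of log2 CPM (prior count 2). That difference was 2.70, 2.86 and 3.02 in W1 to W3 and -2.28 in W4. It was -2.02, -1.95 and -0.58 in D1 to D3 and -1.76, -0.54 and -0.74 in H1 to H3. The sign therefore separated W1 to W3 from all other libraries. The mean difference between the 6 rd10 and the 4 WT libraries was -2.84 (p = 0.0667, two-sided exact permutation test, smallest possible p 0.00952). Without W4 it was -4.12 (p = 0.0238, exact permutation test), the lowest value this design can give.

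Among rod genes the fall of Reep6 was in the middle of the range. The 12 rod markers (among them Gnat1, Gngt1, Pde6a, Pde6b, Pde6g, Cnga1, Cngb1, Sag, Rom1, Nrl and Nr2e3) all fell in rd10 DMSO without W4, by log2 differences of -3.93 to -2.40 with a median of -3.12, and Reep6, at -3.61, was 5th from the lowest of the 13. Nrl, the transcription factor of rod fate, was at -3.93 ± 0.43 (SE). Sag, rod arrestin, had the smallest fall, -2.40 ± 0.35. With W4 in the edgeR fit no rod marker passed, and the list's median was -2.74. W4 was set aside on these same markers, so their fall without it is a description and no separate test.

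Within each library, log2 CPM of Reep6 minus the mean of the rod list was -1.56, -1.57 and -1.50 in W1 to W3 and -1.74 in W4. The rd10 DMSO values were -1.75, -1.86 and -1.93 and the halofantrine values -1.61, -1.55 and -1.66. The rod list's own level fell by far more than these differences, from 11.4 to 11.5 in W1 to W3 to 7.45 to 8.86 in rd10. The mean difference of rd10 from WT was -0.13 (p = 0.152, two-sided exact permutation test) and without W4 -0.18 (p = 0.0714, exact permutation test), and neither passed. The rd10 DMSO values alone were all below all 4 WT values, W4 included, with a mean difference of -0.25 (p = 0.0571, two-sided exact permutation test, the smallest that 3 against 4 allows) and of -0.30 without W4 (p = 0.1, again the smallest possible). The order against W4 was a near tie, with D1 at -1.746 and W4 at -1.736. The share of all genes that separate in this way was not computed.

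**Figure D3:**
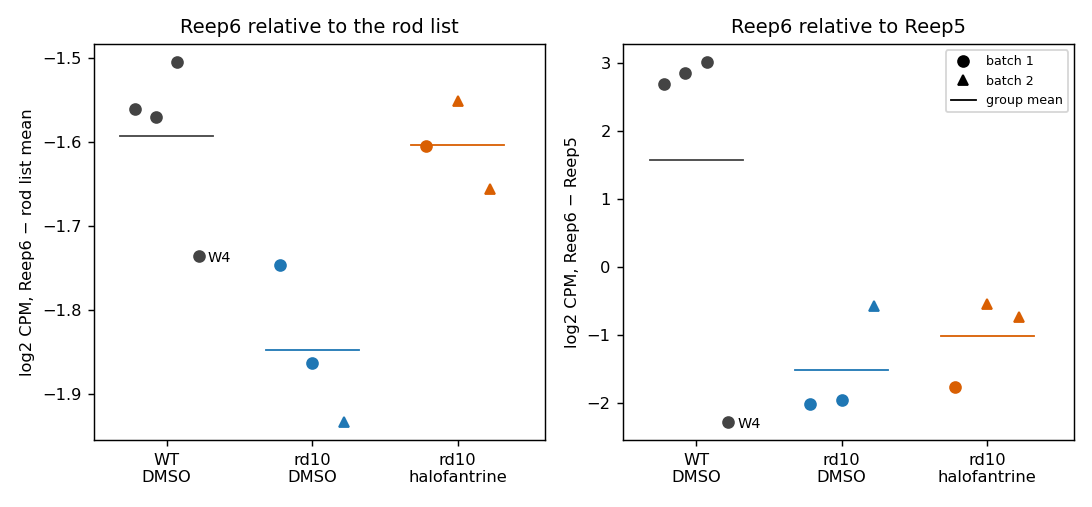
Log2 CPM of Reep6 minus the mean log2 CPM of 12 rod markers (left) and minus that of Reep5 (right) in each library; circles are batch 1, triangles batch 2, lines group means. The rod-relative values stay between -1.93 and -1.50 in all 10 libraries, with halofantrine at -1.66 to -1.55 above rd10 DMSO at -1.93 to -1.75, while the value against Reep5 goes from 2.70 or more in W1 to W3 to -0.54 or less elsewhere.

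Genes tied to Reep6 and to rod identity fell with it. Of the 6 genes of trafficking linked to Reep6 (Stx3, Gucy2e, Gucy2f, Rd3, Unc119 and Pde6d), all 6 fell in rd10 DMSO without W4, where 62.2% of all genes were called, with a median log2 difference of -1.86. By edgeR 0 passed with W4. Gucy2e and Gucy2f are the photoreceptor guanylate cyclases. Gucy2e was at 899 CPM to 1014 CPM in W1 to W3, at 126 CPM, 144 CPM and 214 CPM in D1 to D3 and at 109 CPM in W4, a log2 difference of -2.53 ± 0.19 without W4. Gucy2f had -3.63 ± 0.34, close to the value of Reep6. Unc119, a carrier of lipid-modified phototransduction proteins, had -2.21 ± 0.13. Of 9 photoreceptor transcription factors all 9 fell without W4, with Mef2c at -3.15 ± 0.14, Esrrb, a nuclear receptor of rods, at -3.28 ± 0.16 and Prdm1, which holds photoreceptor fate, at -1.47 ± 0.12. No factor of that list passed with W4 by edgeR.

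The other ER genes were called in both directions in the fit without W4, which called 62.2% of all genes, and nothing is read from the size of their counts. The genes named were picked by smallest p in their list, and those called in the other direction are only counted. Of 17 ER tubule-shaping genes, 8 rose and 3 fell in rd10 DMSO without W4, with a median of 0.16. Ckap4, a protein of ER sheets, rose by 0.85 ± 0.10 on the log2 scale, and Rab10, a GTPase of growing tubules, and Vapa, a contact-site tether, each rose by 0.26 ± 0.06. Of 7 ER-phagy receptors, which pass ER fragments to autophagy, 1 rose and 4 fell, with Ccpg1 at -0.51 ± 0.07, Calcoco1 at -0.48 ± 0.06 and Tex264 at -0.41 ± 0.08. Of 10 measured genes of the ER stress response 3 rose and 5 fell, with Pdia4, a folding enzyme, at -0.82 ± 0.08, Creld2 at -0.61 ± 0.15 and Ddit3, a stress transcription factor, at -0.35 ± 0.09. With W4 none of these genes passed the edgeR test. Scaling by library size alone turned the median of the ER-phagy list from -0.15 to 0.01 with all WT libraries. The 4 receptor transporter proteins (Rtp1 to Rtp4), a group first found with the REEP proteins, had no row in the gene table.

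No REEP gene passed the test for halofantrine. Across all genes, 0 of 11692 (0%) passed in halofantrine against DMSO in rd10 by edgeR, 557 had an unadjusted p under 0.05, DESeq2 called 3 genes and limma-voom 0. Reep6 was 0.47 ± 0.42 (SE) higher on the log2 scale, with a 95% interval of -0.51 to 1.45 (adjusted p = 0.891). The interval includes no change and a rise of over 2-fold. Reep2 was at 0.11 (interval -0.06 to 0.28), Reep1 at 0.04 (-0.13 to 0.21), Reep5 at -0.03 (-0.23 to 0.17), Reep3 at -0.07 (-0.30 to 0.15) and Reep4 at -0.15 (-0.48 to 0.18), with edgeR adjusted p-values of 0.883 to 0.969. For none of the 6 genes did the halofantrine and DMSO libraries separate, whereas 13.1% of all genes had no overlap between the 2 groups. No gene of the other lists passed either. Of the ER, trafficking and photoreceptor factor lists, the gene of smallest unadjusted p in each was Tmem33, an ER membrane protein, at -0.14 ± 0.06 (SE) in the ER tubule-shaping list, Calcoco1 at 0.16 ± 0.08 among the ER-phagy receptors, Creld2 at 0.30 ± 0.17 in the ER stress list, Rd3, a partner of the guanylate cyclases, at 0.22 ± 0.14 and Prdm1 at 0.31 ± 0.13, each with an edgeR adjusted p of 0.883.

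The halofantrine difference of Reep6 was smaller within batches. Halofantrine had 2 of its 3 libraries in batch 2 and DMSO 1 of 3. The batch 1 libraries D1, D2 and H1 were at 54.5 CPM, 52.2 CPM and 57.2 CPM and the batch 2 libraries D3, H2 and H3 at 122 CPM, 143 CPM and 114 CPM. Within batch 1 the halofantrine library was 0.10 above the DMSO mean in log2 CPM, and within batch 2 the halofantrine mean was 0.08 above the DMSO library. With batch as a term the difference was 0.09 ± 0.09 (SE), with a 95% interval of -0.12 to 0.30 (edgeR adjusted p = 0.601), so a rise of more than about 0.30 lay outside the interval. Reep2 was at 0.16 ± 0.05 with the batch term (unadjusted p = 0.0220, edgeR adjusted p = 0.268), in a fit where 0 genes passed and 1952 of 11692 had an unadjusted p under 0.05, with 0.16 within batch 1 and 0.15 within batch 2. Without a batch term, removing each library's trend over GC content turned the Reep2 value from 0.11 to -0.04.

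Batch 2 against batch 1 within rd10 called 88 to 2635 genes with 1 library left out and 218 without a treatment term. With treatment as a term and no library left out, it called 559 of 11692 genes, which is 4.78%. Reep6 was the 1 member of the 5 in the gene table that passed, and Reep4 did not pass either. It was 1.17 ± 0.09 (SE) higher in batch 2, a 2.26-fold level (edgeR adjusted p = 0.00168). In the fit of all 10 libraries, which called 0 genes by edgeR (673 at an unadjusted p under 0.05), the value was again 1.17 and did not pass (adjusted p = 0.856). All 12 rod markers rose in batch 2 by 0.64 to 1.69, with a median of 1.23, and Reep6 was 6th from the lowest of the 13. All 8 Muller glia markers had values below 0 (median -0.22, 2 passed), 2 of 10 bipolar and 2 of 12 amacrine and horizontal markers passed as lower, 2 of 10 cone markers passed as higher, and the 3 blood markers tested had a median of 1.46 with 0 called. Of the 7 gliosis markers 2 passed as higher and 1 as lower, and 1 of 4 endothelium markers passed as lower. The 5 microglia markers tested were all below 0 (median -0.25) and the 5 pigment epithelium markers had a median of -0.52, with 0 called in both lists. The part of these cells in the Reep6 value was not tested. Of the Reep6-linked trafficking genes all 6 had a value above 0 in batch 2 and 5 passed, Gucy2f by 1.27 ± 0.08 and Gucy2e by 0.68 ± 0.09. Of the 9 photoreceptor transcription factors 8 had a value above 0 and 4 passed, Nrl by 1.54 ± 0.07 and Esrrb by 0.56 ± 0.11. The other members had values of -0.19 to 0.14 (adjusted p = 0.157 to 0.814). Batch is known here only as a label, and what differed between the batches was not stated.

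**Figure D4:**
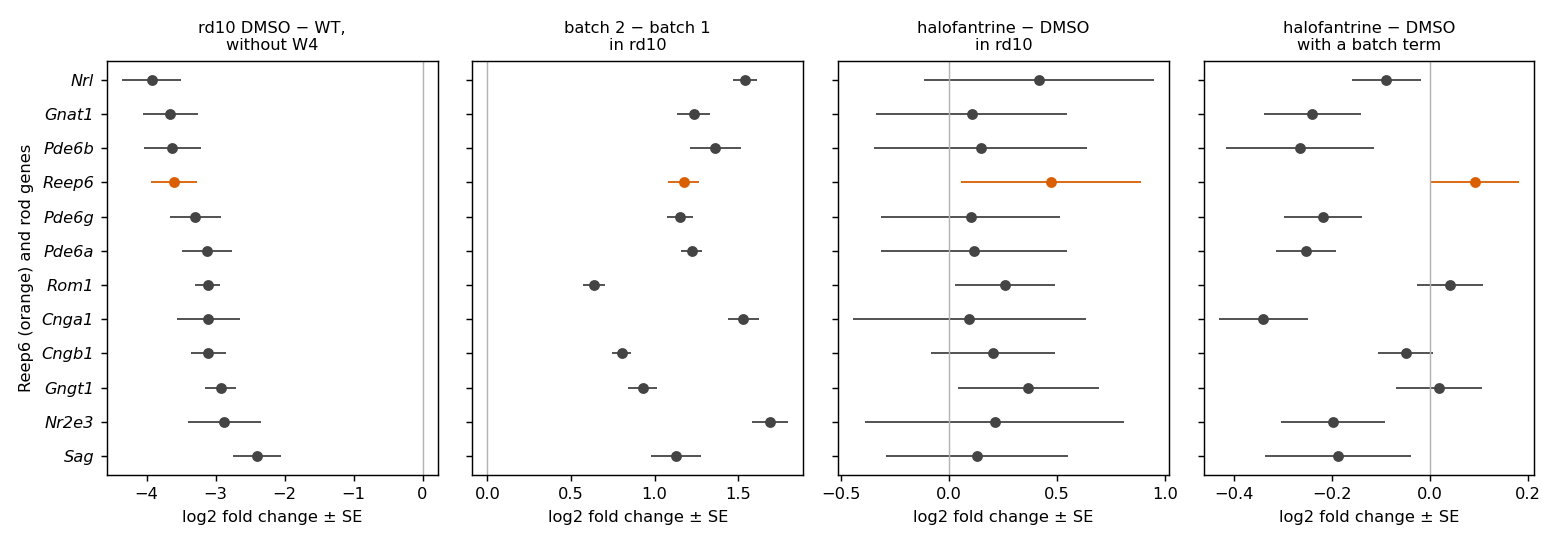
Log2 fold change ± SE of Reep6 (orange) and the rod markers named above in rd10 DMSO minus WT without W4, in batch 2 minus batch 1 of rd10, and in halofantrine minus DMSO in rd10 without and with a batch term; each panel has its own scale. Reep6 lies inside the rod range in the first 2 panels (-3.93 to -2.40 and 0.64 to 1.69) and is the highest gene shown in both halofantrine panels, at 0.47 and 0.09.

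Against the rod list, the Reep6 values of the halofantrine and DMSO libraries did not overlap. The rod-relative values of H1 to H3 (-1.61, -1.55 and -1.66) were all above those of D1 to D3 (-1.75, -1.86 and -1.93), a mean difference of 0.24 (p = 0.1, two-sided exact permutation test, the smallest that 3 against 3 allows). Of the 12 rod markers, each taken against the mean of the others, 0 (0%) separated in this way. Over all genes minus the rod list mean the share was 0.265%, which takes in the spread of the rod list itself for genes that do not follow it. The order held in each batch, with H1 above D1 and D2 in batch 1 and H2 and H3 above D3 in batch 2, where treatment also goes with the set name. In the fits, Reep6 at 0.47 was the highest of the 13 genes, above a rod range of 0.07 to 0.42, and with the batch term it was at 0.09 against a rod median of -0.21 and a rod range of -0.34 to 0.04. Removing each library's GC trend brought Reep6 to 0.19 against a rod median of 0.15 and range of 0.03 to 0.49, which placed it 11th from the lowest of the 13. Reep6 transcripts had a GC content of 60.1%, above each of the 12 rod markers (35.9% to 57.1%). At the smallest p of 0.1 the design cannot reach the 0.05 threshold for this comparison.

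The form with exon 5 made up most of Reep6 and fell with the gene without W4. In rd10 DMSO against WT, the skipped form (Reep6-203 and Reep6-204) had log2 values above 0 and did not pass. Transcripts with exon 5 were at 851 CPM, 865 CPM and 944 CPM in W1 to W3, at 36.8 CPM in W4, at 48.1 CPM, 46.0 CPM and 109 CPM in D1 to D3 and at 52.0 CPM, 136 CPM and 106 CPM in H1 to H3. The skipped form was at 4.51 CPM, 4.26 CPM and 2.76 CPM in W1 to W3, at 4.12 CPM in W4, at 4.76 CPM, 4.57 CPM and 6.14 CPM in D1 to D3 and at 4.05 CPM, 1.30 CPM and 3.30 CPM in H1 to H3. So the skipped form overlapped between WT and all rd10 libraries while the form with exon 5 differed more than 6-fold between W1 to W3 and any rd10 library. Averaged over groups, the form with exon 5 was 10.7-fold lower in rd10 than in W1 to W3 (p = 0.0238, two-sided exact permutation test, the smallest possible), and 8.13-fold lower than in all 4 WT libraries, which did not pass (p = 0.0667, exact permutation test). The skipped form was 1.05-fold higher (p = 0.786, exact permutation test). This pools DMSO libraries at a mean of 5.16 CPM with halofantrine libraries at 2.88 CPM, on both sides of 3.84 CPM in W1 to W3. With 1 library left out, the rd10 minus WT difference ranged from -0.32 CPM to 0.65 CPM. Of the rd10 libraries, those given DMSO all lay above all 4 WT libraries for the skipped form, W4 included, at a 1.32-fold mean (p = 0.0571, two-sided exact permutation test, the smallest that 3 against 4 allows). D2 at 4.57 CPM and W1 at 4.51 CPM nearly met, on estimated counts of 183 and 95.3. The share of all transcripts that separate in this way was not computed.

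In a fit of 60528 transcripts, the form with exon 5, summed over its transcripts, was at -3.25 ± 0.99 (SE) in rd10 DMSO against WT (edgeR adjusted p = 0.418, DESeq2 adjusted p = 0.0140), and the skipped form at 0.45 ± 0.25 (edgeR adjusted p = 0.477, DESeq2 adjusted p = 0.383). By edgeR 1 transcript, or 0.00165%, passed in that fit, and DESeq2 called 979. Without W4 the first form fell by 3.63 ± 0.36 on the log2 scale (adjusted p = 0.00272), where 15.5% of 57733 transcripts passed, and the second was at 0.51 ± 0.26 (adjusted p = 0.264).

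The share of Reep6 counts with exon 5, of the counts of both forms, was 99.5%, 99.5% and 99.7% in W1 to W3. It was 89.9% in W4 (95% Wilson interval 88.1% to 91.6%), 91.0%, 91.0% and 94.7% in D1 to D3 and 92.8%, 99.1% and 97.0% in H1 to H3. On this denominator every rd10 library was below every one of W1 to W3, the nearest being H2 with an interval of 98.7% to 99.3%. The intervals cover counting error only, not the error of assigning reads to transcripts. The mean was 94.2% ± 3.29 (SD, n = 6) in rd10 and 97.2% ± 4.81 (SD, n = 4) in WT (p = 0.295, two-sided exact permutation test). Without W4 the WT mean was 99.6% ± 0.127 (SD, n = 3), a difference of -5.32 percentage points (p = 0.0238, exact permutation test, the smallest possible). That separation depended on the denominator, which leaves out Reep6-201 and Reep6-206. With Reep6-201 counted, W1 to W3 were at 98.0%, 98.4% and 98.5% and H2 at 98.6%. Over all Reep6 transcripts W2 was the highest of the 3 at 95.39% and H2 was at 95.44%, so on both denominators H2 was no longer below them. The difference without W4 was then -4.59 and -4.39 points and did not pass (p = 0.0952 for both, two-sided exact permutation test). Reep6-202 shares the longer first exon with the skipped form. It was at 0, 0 and 3.48 CPM in D1 to D3 and at 0, 4.55 and 0.951 CPM in H1 to H3. Reep6-203 was at 2.38, 2.28 and 3.07 CPM in D1 to D3 and at 2.02, 0.649 and 1.65 CPM in H1 to H3. How far the share depends on this split of reads was not tested.

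**Figure D5:**
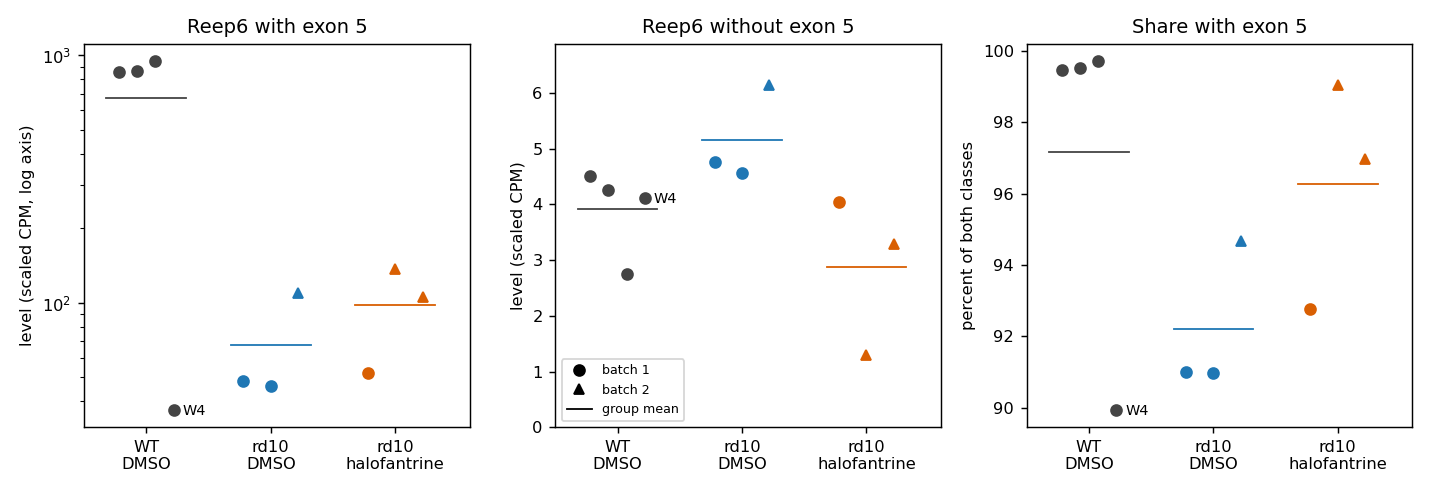
Level of Reep6 transcripts with exon 5 (left, logarithmic axis) and of the skipped form, Reep6-203 and Reep6-204 (middle), in CPM, and the percent of both that holds exon 5 (right, on an axis that does not start at 0), in each library; circles are batch 1, triangles batch 2, lines group means. The first is at 851 to 944 CPM in W1 to W3 and 36.8 to 136 CPM elsewhere, the second is at 1.30 to 6.14 CPM, and the share is 99.5% to 99.7% in W1 to W3 and lowest, at 89.9%, in W4.

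Within rd10 the share was higher in batch 2 and, in each batch, higher under halofantrine. In batch 1 it was 91.0% and 91.0% under DMSO and 92.8% under halofantrine, and in batch 2 it was 94.7% under DMSO and 99.1% and 97.0% under halofantrine. The mean was 96.3% ± 3.20 (SD, n = 3) under halofantrine and 92.2% ± 2.13 (SD, n = 3) under DMSO (p = 0.2, two-sided exact permutation test), and 96.9% ± 2.20 in batch 2 and 91.6% ± 1.04 in batch 1 (p = 0.1, exact permutation test, the smallest possible with n = 3). Over all Reep6 transcripts the means were 93.0% and 88.6% by treatment (p = 0.1) and 92.5% and 89.1% by batch (p = 0.2, exact permutation tests). The skipped form was lower in each halofantrine library than in each DMSO library, at a mean of 2.88 CPM against 5.16 CPM (p = 0.1, exact permutation test, n = 3), and 11.9% of all transcripts tested had no overlap between these groups. In the transcript fit its difference was -0.83 ± 0.42 (edgeR adjusted p = 0.999), where 0 of 61926 transcripts (0%) passed, 2316 had an unadjusted p under 0.05 and DESeq2 called 322. The lowest value, in H2, rested on an estimated count of 44.9. Without H2 the fitted difference was -0.47, and without H1 it was -1.15.

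Reep6-207 was the main transcript of Reep6. It held 91.3%, 92.6% and 91.6% of the gene's counts in W1 to W3, 87.5% in W4 and 83.7% to 91.2% in rd10. Its level went from 818 CPM to 907 CPM in W1 to W3 to 46.0 CPM to 127 CPM in rd10, a log2 difference of -3.63 ± 0.33 in rd10 DMSO without W4 (edgeR adjusted p = 0.00219) and -3.25 ± 0.97 with it (edgeR adjusted p = 0.418, DESeq2 adjusted p = 0.0126). Reep6-206, annotated as a retained intron, and the shorter Reep6-201, both without exon 5 and outside the exon 5 share, fell as well, with -3.34 ± 0.58 (adjusted p = 0.0141) and -4.51 ± 0.79 (adjusted p = 0.0147) without W4. With W4 neither passed by edgeR (adjusted p = 0.418 for both), while by DESeq2 Reep6-201 passed (adjusted p = 0.0372) and Reep6-206 did not (adjusted p = 0.0785). Reep6-206 was at 27.7 CPM to 32.4 CPM in W1 to W3 and 1.08 CPM to 5.64 CPM in rd10, and Reep6-201 at 9.88 CPM to 12.6 CPM and 0.117 CPM to 1.18 CPM, so in W1 to W3 both were above the skipped form. Reep6-202 and Reep6-205 have the same sequence in the reference, as do Reep6-203 and Reep6-204, and each pair had equal counts in every library, so the members of a pair cannot be told apart.

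No transcript share of the other members passed a test. Reep2 had 1 transcript. Reep1-201 held 88.9% ± 2.16 (SD, n = 4) of Reep1 counts in WT and 91.1% ± 2.34 (SD, n = 6) in rd10, Reep3-201 held 90.9% and 91.9% of Reep3 counts, Reep4-201 59.0% and 57.1% of Reep4 counts, and Reep5-201 99.8% and 99.7% of Reep5 counts. None of the 8 shares of at least 5% differed between rd10 and WT after adjustment over the 8 (adjusted p = 0.457 to 0.924, two-sided exact permutation test). Without W4 Reep6-207 had the smallest p, with 88.5% in rd10 and 91.8% in W1 to W3 (p = 0.0238, adjusted p = 0.191, exact permutation test). In rd10 DMSO against WT the main transcripts of the 3 genes that rose passed only without W4, where 15.5% of transcripts passed, with Reep1-201 at 0.78 ± 0.09, Reep2-201 at 0.60 ± 0.09 and Reep5-201 at 0.75 ± 0.11 (edgeR adjusted p = 0.00425, 0.00805 and 0.00751). With W4 they were at 0.52, 0.42 and 0.50 (edgeR adjusted p = 0.428, 0.418 and 0.430).

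The genes whose log2 CPM was most like that of each member were listed as a description, since the 10 libraries fall into W1 to W3 and the rest and so share 1 contrast. For Reep6 the 10 most alike, by Pearson's r over the 10 libraries, were Nxnl1, Fscn2, Nrm, Nrl, Fam57b, Gucy2e, Lyar, Wdr17, Prph2 and Slc24a1, with r from 0.999 to 0.997. Several are photoreceptor genes, such as Nxnl1 (rod-derived cone viability factor), Fscn2 (a photoreceptor fascin), Prph2 (a disc rim protein) and Slc24a1 (the rod calcium exchanger). Over the 6 rd10 libraries alone, the 5 most alike were Arhgap10, Rbm8a, Rom1, Unc119 and Nxnl1, with r from 0.998 to 0.996, among libraries that fall into 2 batches. Among the genes most like Reep5 were Cxcl14, Dtx4, Chst10 and Tox3 (r = 0.995 to 0.991), Reep1 was most like B3galt1, Elmo2, Krt222, Chrnb2 and Id4 (r = 0.992 to 0.989), and Reep2 was most like Fibcd1, Pacsin1, Lgi3, Mark1 and Scrt2 (r = 0.989 to 0.985). For Reep3 the highest values were lower, 0.882 for Rps3a1 to 0.854 for Phyh.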

How the data were processed

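Poly(A) RNA of 10 retina libraries was sequenced with a stranded kit. The authors pseudoaligned reads with kallisto to Ensembl transcripts (GRCm39) and deposited estimated counts per transcript (275112) and per gene (11702). The deposited CPM table is a scaled signal, in which a single factor links each library's values to its counts. The submitters' processing notes also name edgeR and limma. The deposited table of the authors' own halofantrine comparison (fold changes and p-values) was not used.

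Estimated counts were rounded, filtered by filterByExpr and scaled by TMM, and tested by edgeR 4.0.16 quasi-likelihood with Benjamini-Hochberg adjustment over all genes or transcripts and a threshold of 0.05 (R 4.3.3). Alternatives were DESeq2 1.42.0, limma-voom (limma 3.58.1), other scalings, filters and designs, and each library left out. Standard errors came from the F statistic. Log2 CPM used a prior count of 2. Exact permutation tests used scipy 1.17.1. Scripts were tested on simulated data. Symbols matched 11492 genes. GENCODE M21 gave transcript lengths, GC content (98.1% of genes) and sequences, and the 26 REEP transcripts of the counts were 1 version later than in it. Reep4 and the exon 5 forms were added after the data were seen. The members and lists were chosen with earlier results of these data known. Named genes were the members, the listed genes of smallest p and the genes most alike by Pearson's r. Some genes are not reported here by name.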

Additional observations from a re-analysis of the deposited data

Results flagged for a closer look

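In the group of 4 WT libraries W4 stood apart from the other 3 by Dixon's ratio (the gap to the nearest library over the range of the group). The ratio was 0.901 for Reep6 and 0.842 for Reep1 CPM, 0.898 for the level of Reep6 with exon 5, 0.976 for its share and 0.94 for Reep6 relative to Reep5. Among listed genes it was 0.848 for Calcoco1, 0.931 for Ckap4, 0.962 for Creld2, 0.873 for Gucy2e, 0.887 for Gucy2f, 0.959 for Mef2c, 0.908 for Rd3, 0.969 for Unc119 and 0.946 for Vapa. All 14 cases were W4, of 49 values checked, of which chance would flag about 2.45. The values are not independent, since they come from the same libraries.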

How the results depend on the processing

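No paired analysis was possible because the replicate numbers only name libraries in accession order. Counts of called genes depended on the tool and on single libraries. DESeq2 called 3 genes for halofantrine against DMSO, 589 for rd10 DMSO against WT, 2221 for rd10 halofantrine against WT and 1429 for the batch, and 322 and 979 transcripts. limma-voom and the fit of all 10 libraries called 0 genes for rd10 halofantrine against WT, and for the batch the fit of all 10 called 0 and the fit without a treatment term 218. Leaving out 1 library gave 0 to 7 genes for halofantrine, 0 to 7280 for rd10 DMSO and 0 to 8408 for rd10 halofantrine against WT, 88 (without D3) to 2635 (without H1) for the batch, and 0 to 8948 transcripts for rd10 DMSO against WT. The highest counts against WT were without W4. For Reep6 in rd10 DMSO against WT, DESeq2 gave -3.20 (adjusted p = 0.0353) and leaving out 1 library -3.71 to -2.99. In rd10 halofantrine against WT the values were -2.74 (adjusted p = 0.0168) and -3.14 to -2.46. The batch value of Reep6 was 1.17 in the fit of all 10 (adjusted p = 0.856) and 1.10 to 1.24 with 1 library left out. The exon 5 share differed by -5.32 to -2.06 points and Reep6 relative to Reep5 by -4.12 to -2.36, with the tests passed in both only without W4, and for the share only where Reep6-201 and Reep6-206 are left out of it (exact permutation p = 0.0952 with either denominator that holds Reep6-201, chosen after seeing the data). The halofantrine value of Reep6 ranged from 0.18 to 0.98. Signs turned only among values under the test's threshold. Reep2 under halofantrine was -0.036 with the GC offset, and Reep5 0.0073 with a batch term, 0.00040 with the GC offset and -0.095 to 0.048 with 1 library left out. Reep3 in rd10 halofantrine against WT was 0.0025 by DESeq2, 0.00043 by limma-voom, 0.15 by library size and -0.070 to 0.038 with 1 library left out, and Reep4 was 0.066 by library size. For the batch, Reep1 ranged from -0.062 to 0.12 and Reep5 from -0.23 to 0.038 with 1 library left out. The Reep4-203 share was -0.24 points with length scaling. With 1 library left out it ranged from -3.19 to 1.72 points, the Reep4-201 share from -5.24 to 1.98, the Reep4-205 share from -0.76 to 2.62 and the skipped form from -0.32 CPM to 0.65 CPM. The causes were not tested. Depth limits Reep4 (122 to 316 counts), the skipped form (44.9 to 183 counts) and minor transcripts such as Reep6-201 (3.19 to 34.2 counts in rd10).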
